A study of Bos taurus with 6 samples.

Results

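The family of miR-148 and miR-152 was followed in the small RNA of cultured bovine fat cells. It comprised 5 of the 771 known miRNA rows of the deposited table, taken by name as bta-miR-148a, bta-miR-148b, bta-miR-148c, bta-miR-148d and bta-miR-152, whichever arm was listed, and written below without the species prefix. The samples were 3 libraries of adipocytes and 3 of preadipocytes, the committed precursors of fat cells, from Holstein cattle at passage 4 to 6, in F12/DMEM with 10% serum and 1% antibiotics. Adipocytes are obtained from preadipocytes with an induction mix of IBMX, rosiglitazone, dexamethasone and insulin. The labels give one growth text for both groups, so that which cultures had received the mix is read from the cell type alone. The labels state neither the animals nor the fat depot nor the length of induction. Nothing says that replicates came from separate cultures, so the p-values reflect only how these samples spread, possibly for technical reasons. Small RNA sequencing measures no mRNA, and the adipocyte label could not be checked against adipocyte mRNAs.

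MicroRNAs (miRNAs) are short RNAs that pair with mRNAs, mostly through a seed near their 5′ end, and lower their translation and stability. In mammals miR-148a, miR-148b and miR-152 share their seed and many targets, among them the maintenance DNA methyltransferase DNMT1. In humans miR-148a has been described as favouring adipocyte differentiation through the signalling ligand WNT1, and in human and mouse liver as lowering the LDL receptor and the cholesterol exporter ABCA1. It is also among the abundant miRNAs of cow's milk. The rows of miR-148c and miR-148d, names used in cattle, carried no family in the table's description column, while the rows of miR-148a, miR-148b and miR-152 carried one. The miR-148d row was of the type hairpin and the others of the type mature.

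All 5 rows matched a RefSeq gene of assembly ARS-UCD2.0, whose gene table was used here for names and neighbours only. The 5 names stood for 3 places in the genome. The genes of miR-148a and miR-148d overlapped each other, as did those of miR-152 and miR-148c, while that of miR-148b overlapped no other miRNA row. Overlap was judged by position, without regard to strand. The miR-148b gene lay within COPZ1 and the miR-152 and miR-148c genes within COPZ2, which encode zeta subunits of the COPI vesicle coat. No protein-coding gene surrounded miR-148a. The protein-coding genes next to these places were related: NFE2L3 beside miR-148a, NFE2 near miR-148b and NFE2L1 beside miR-152, all of the cap'n'collar transcription factor family. Each place shared its chromosome with a HOX cluster, HOXA for miR-148a, HOXC for miR-148b and HOXB for miR-152, with 5 protein-coding genes between the miRNA and the nearest HOX gene in every case.

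Known and predicted miRNAs took 15035059 to 19123498 reads per adipocyte library, against 14525284 to 22283754 reads per preadipocyte library. A level is given in counts-per-million (CPM) of miRNA reads, scaled by TMM factors from edgeR, and group values are means ± SD over 3 libraries (n = 3). A difference is the log2 of the adipocyte over the preadipocyte level. A read of a miRNA spans the molecule, so counts were not divided by length. The TMM factors were 1.02 to 1.40 in adipocytes and 0.734 to 0.846 in preadipocytes, and miR-21-5p took 64% to 74.1% of the miRNA reads in adipocytes and 77.9% to 80.2% in preadipocytes. Reads of genome features (exons, introns, repeats and the intergenic space) made up 8.21% to 12% of the table in adipocytes, and 18.5%, 18.9% and 5.29% in preadipocyte replicates 1, 2 and 3, the last of which stood apart from the other preadipocyte libraries. In bulk samples more cells with a miRNA and more of it per cell cannot be told apart.

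The family's abundant member, miR-148a, rose in adipocytes. Its reads numbered 32364, 29509 and 22161 in adipocyte replicates 1, 2 and 3, against 7850, 3506 and 7650 in preadipocyte replicates 1, 2 and 3. Scaled, these were 1604, 1397 and 1133 CPM in adipocytes, against 537, 286 and 467 CPM in preadipocytes. All adipocyte libraries lay above all preadipocyte libraries, the lowest adipocyte level being 2.11 times the highest preadipocyte level. Among known miRNAs miR-148a stood 31st by mean level in adipocytes and 57th in preadipocytes.

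The mean level of miR-148a was 1378 ± 236 CPM in adipocytes, against 430 ± 130 CPM in preadipocytes. The log2 difference came to 1.68 (3.21-fold, SE 0.32), with a Benjamini-Hochberg (BH) adjusted p of 0.0309 in edgeR's quasi-likelihood test. It was the only one of the 4 members tested to pass the threshold of 0.05, and none passed as lower. Of all 414 miRNAs tested, 26 passed (6.28%), 16 as higher in adipocytes (3.86%) and 10 as lower (2.42%). For 24.2% of them all adipocyte libraries lay above all preadipocyte libraries, so that a lack of overlap alone was common. All 4 members had positive estimates, where 207 of all 414 tested miRNAs had one. The median log2 difference of the members was 1.90, against -0.02 over all tested miRNAs. Of the 4, miR-148c and miR-152 have overlapping genes, so that they may not count as separate members.

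**Figure D1:**
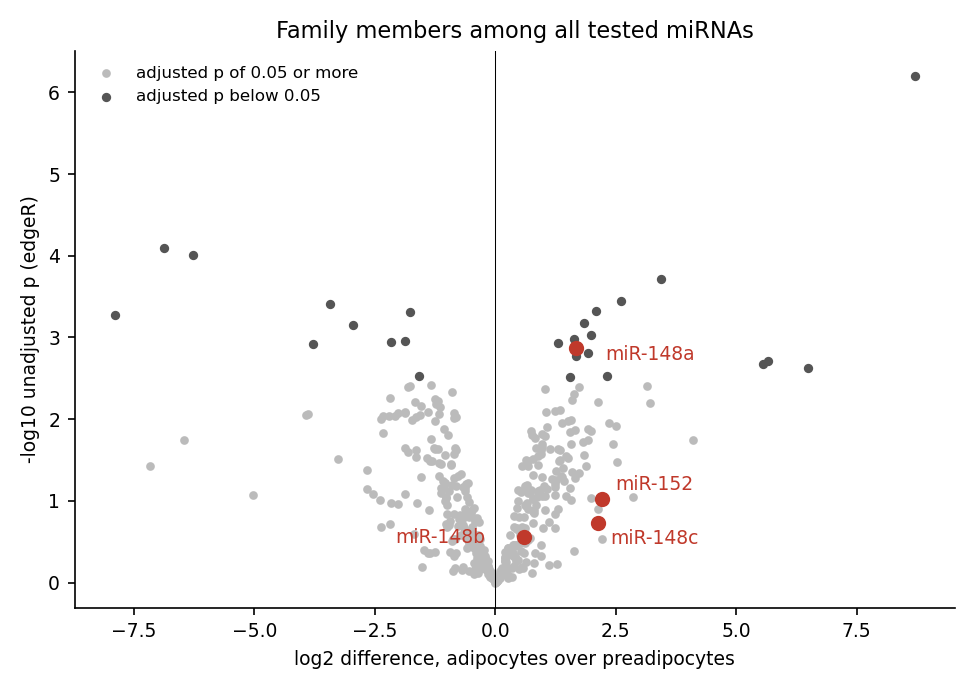
Log2 difference of adipocytes over preadipocytes (x axis) and −log10 of the unadjusted edgeR p (y axis) for each of the 414 tested miRNAs, with the family members in red and miRNAs past the adjusted threshold in dark grey. All 4 tested members lie to the right of 0 and miR-148a alone lies among the dark points.

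The call of miR-148a depended on which libraries were included. It was kept without preadipocyte replicate 3 (edgeR BH-adjusted p = 0.0229) and lost without any other single library, at edgeR BH-adjusted p of 0.14, 0.119 and 0.0789 without adipocyte replicates 1, 2 and 3, and of 0.0772 and 0.0649 without preadipocyte replicates 1 and 2. The calls over all miRNAs changed as well. Called higher were 1 of 468, 1 of 466 and 4 of 463 without adipocyte replicates 1, 2 and 3. Without preadipocyte replicates 1, 2 and 3 they were 2 of 439, 1 of 452 and 64 of 465. The call of miR-148a was also lost with the share of genome-feature reads as a covariate (1.64, edgeR BH-adjusted p = 0.0547). With the replicate number as a block it was lost too (1.71, edgeR BH-adjusted p = 0.125). With all 6 libraries it was kept with known miRNAs only (edgeR BH-adjusted p = 0.0244), without miR-21-5p (edgeR BH-adjusted p = 0.0258), with DESeq2 (adjusted p = 6.93e-06) and with limma on the deposited TPM (adjusted p = 0.00987). The estimate stayed between 1.44 and 1.86 in those 6 fits that each left out 1 library. With library totals alone it was 2.35, where the median of all miRNAs was 0.62, and with upper-quartile factors 1.38, where that median was -0.31. Relative to the median of all tested miRNAs, miR-148a was 1.70 higher with TMM, 1.73 with library totals and 1.70 with upper-quartile factors. Such scalings move all miRNAs nearly alike, so that the closeness of these values is no test of the difference. Over all settings with 6 libraries the value ran from 1.57 (genome-feature covariate) to 2.01 (no low-count filter). On the authors' deposited TPM scale miR-148a had 1360, 1220 and 788 TPM in adipocytes and 290, 155 and 252 TPM in preadipocytes, again without overlap.

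**Figure D2:**
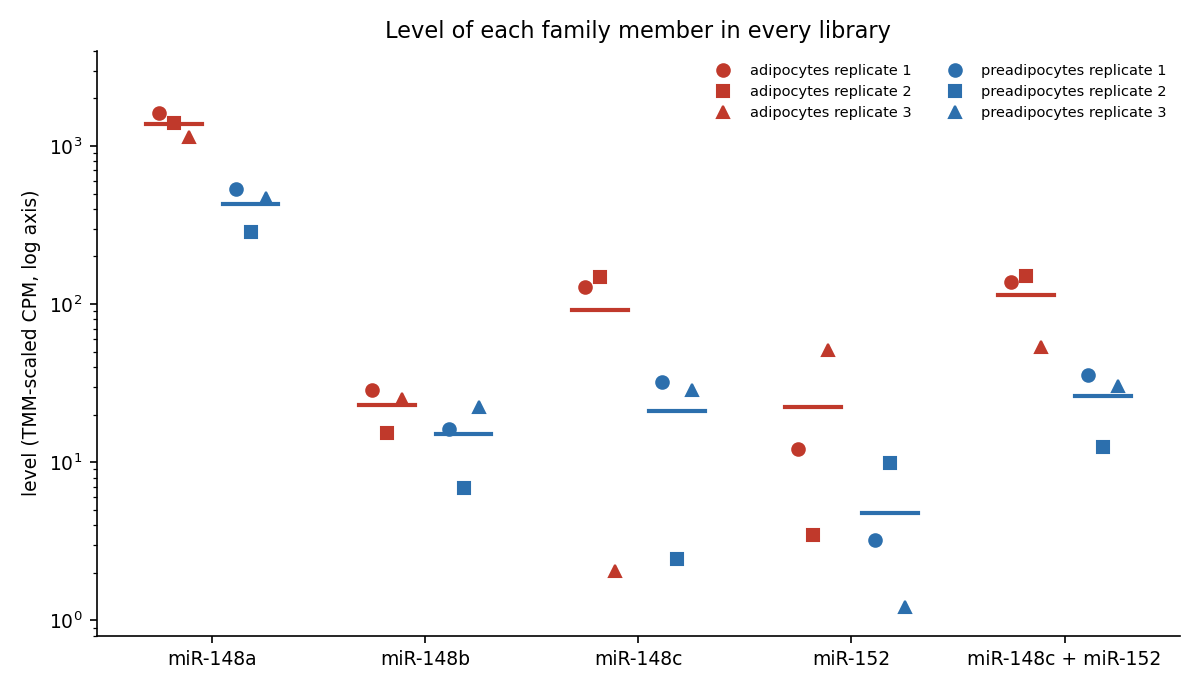
Level of each family member on a log axis of TMM-scaled CPM, with 1 point for each of the 3 adipocyte libraries (red) and 3 preadipocyte libraries (blue) and a bar at each group's mean; miR-148d, at 0 in most libraries, is left out. The groups stand apart for miR-148a and for the summed reads of miR-148c and miR-152, while for miR-148c and miR-152 taken singly each group spreads over more than 8-fold.

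The overlapping name miR-148d held almost none of the reads of its place. It had 5, 3 and 0 reads in adipocyte replicates 1, 2 and 3, against 0 in every preadipocyte library, where a count of 0 allowed up to 0.183 to 0.244 CPM, a limit that covers counting error only. It did not pass the low-count filter and was not tested. Summed with miR-148d, miR-148a differed by 1.67 (SE 0.32, edgeR BH-adjusted p = 0.0306).

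The second most abundant place was that of miR-152 and miR-148c, and the name with more reads differed between libraries. Whether the same reads were divided between these names was not tested, since strand and mature sequences were not compared. In the deposited TPM, miR-152 had 10.2, 3.02 and 35.7 TPM in adipocyte replicates 1, 2 and 3, against 1.74, 5.41 and 0.66 TPM in preadipocyte replicates 1, 2 and 3, and its reads came to 1320 over the adipocyte libraries and 189 over the preadipocyte libraries. The miR-148c row had 108, 129 and 1.42 TPM in adipocytes, against 17.5, 1.33 and 15.6 TPM in preadipocytes, from 5727 and 974 reads. In adipocyte replicate 3 and preadipocyte replicate 2 most reads were named miR-152, and in the other 4 libraries most were named miR-148c.

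As a share of the reads of both names, miR-152 made up 8.64% (95% exact Clopper-Pearson interval 7.62% to 9.73%), 2.29% (1.8% to 2.87%) and 96.2% (94.8% to 97.2%) in adipocyte replicates 1, 2 and 3. The shares were 9.04% (6.72% to 11.8%), 80.3% (73% to 86.3%) and 4.07% (2.51% to 6.22%) in preadipocyte replicates 1, 2 and 3. These intervals cover counting error only. The split thus crossed the cell states, with 1 library of each group on the side of miR-152, and the gap between the sides was wider than counting error.

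**Figure D3:**
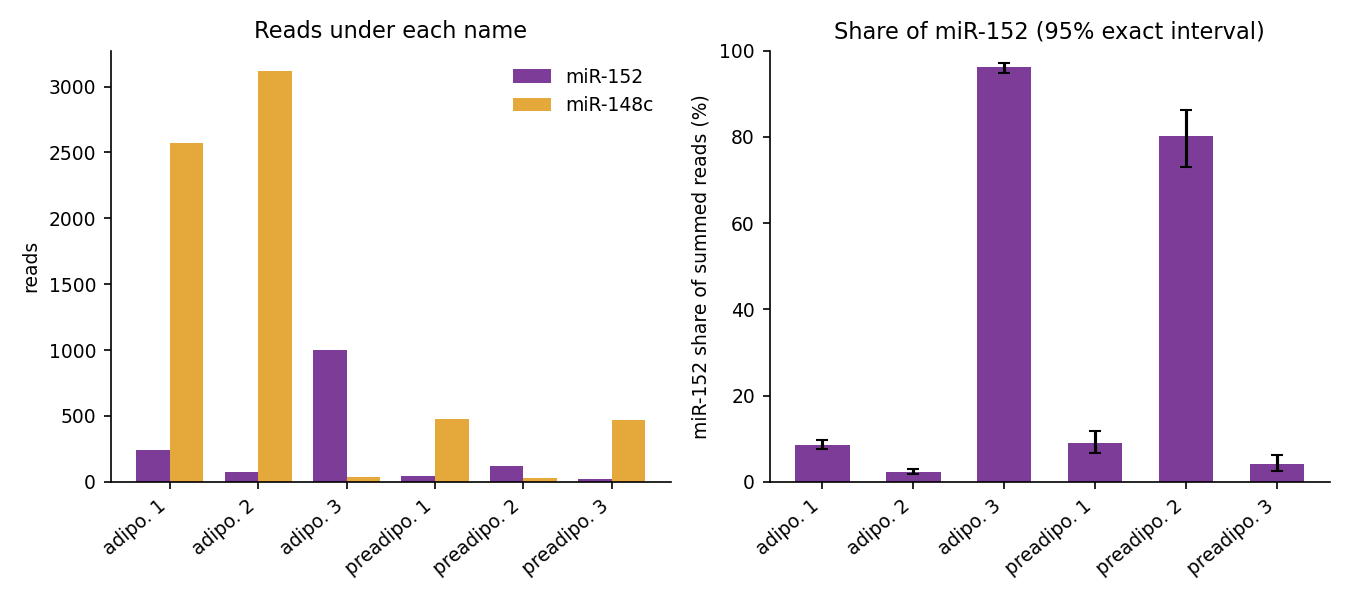
Reads named miR-152 (purple) and miR-148c (yellow) in each library (left) and the share of miR-152 in their sum with its 95% exact interval (right), adipocytes before preadipocytes. Adipocyte replicate 3 and preadipocyte replicate 2 stand at 96.2% and 80.3% and the other libraries at 9.04% or less.

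Taken singly, neither name passed the test. Levels of miR-152, which in humans is described as targeting DNMT1, were 12, 3.46 and 51.3 CPM in adipocytes, against 3.21, 9.94 and 1.22 CPM in preadipocytes. The groups overlapped, and the log2 difference was 2.22 (SE 1.14, edgeR BH-adjusted p = 0.199). It was 0.43 without adipocyte replicate 3 and 3.34 without preadipocyte replicate 2. Levels of miR-148c were 127, 147.5 and 2.05 CPM in adipocytes, against 32.3, 2.44 and 28.8 CPM in preadipocytes, again with overlap, and the difference was 2.12 (SE 1.44, edgeR BH-adjusted p = 0.314). The highest adipocyte level of miR-148c was 72.1 times the lowest.

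Summed over both names, a step added after their counts were seen, the groups did not overlap. On the scale of that fit the levels were 138, 151 and 53.5 CPM in adipocytes, against 35.7, 12.4 and 30.1 CPM in preadipocytes, and the highest library exceeded the lowest 2.82-fold in adipocytes and 2.87-fold in preadipocytes. The means were 114 ± 52.9 CPM in adipocytes, against 26.1 ± 12.1 CPM in preadipocytes, with a log2 difference of 2.13 (SE 0.57), which missed the threshold (edgeR BH-adjusted p = 0.0598) in a fit where 6.3% of 413 miRNAs passed. It passed with library totals alone (2.86, edgeR BH-adjusted p = 0.0257), with known miRNAs only (2.10, edgeR BH-adjusted p = 0.047), with DESeq2 (2.18, adjusted p = 0.00184) and with limma on the deposited TPM (2.60, adjusted p = 0.0237). It missed under the other 7 settings with all 6 libraries (edgeR BH-adjusted p = 0.0592 to 0.167). Each of the 6 fits without 1 library missed too (edgeR BH-adjusted p = 0.0538 to 0.223).

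The more abundant of overlapping names differed between libraries elsewhere in the table too. Of 33 pairs of known miRNA rows whose genes overlap, 21 had a mean of at least 100 summed reads per library, and in 8 of these the more abundant name differed between libraries. The log2 ratio of miR-148c to miR-152 ranged over 10.04 between libraries, the fourth widest range of the 21, against a median range of 3.39. The widest was that of miR-199a-3p to miR-3604, which divided the libraries by cell state. Of the 8 pairs 2 did so, the other being miR-199b and miR-3604. As miR-3604 was also paired with miR-199a-5p, the 8 pairs are not independent. Pairs on the same strand and on opposite strands were not told apart. No other of these pairs divided the libraries as miR-148c and miR-152 did. The ratio of miR-148a to miR-148d, with miR-148a the higher name in all 6 libraries, had the 14th widest range (2.91).

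**Figure D4:**
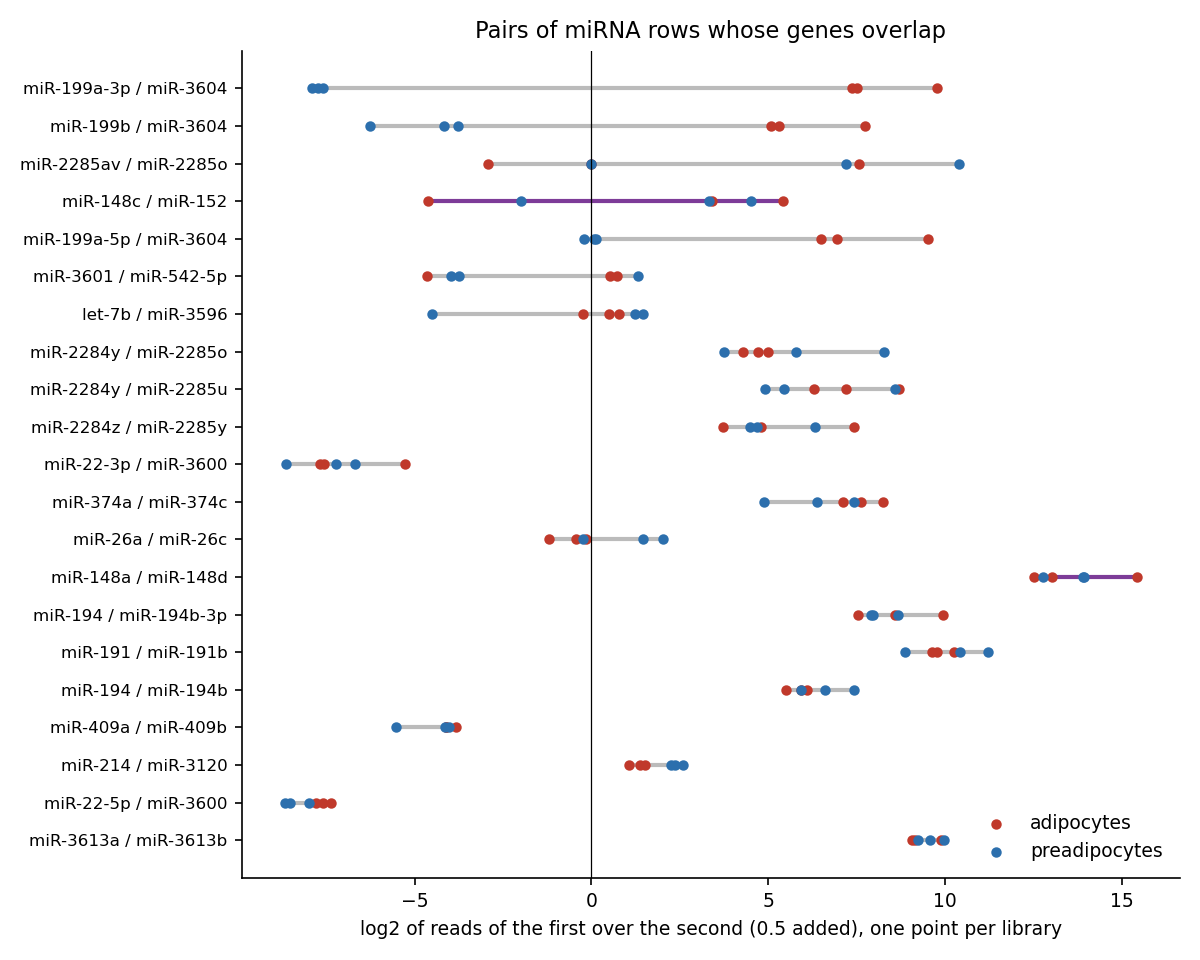
For each of 21 pairs of miRNA rows with overlapping genes, log2 of the reads of the first name over the second (x axis, 0.5 added to each), with 1 red point per adipocyte library, 1 blue point per preadipocyte library, and a line over the range. The family's pairs have purple lines; that of miR-148c and miR-152 crosses 0 with red and blue points on both sides, and that of miR-148a and miR-148d stays far to the right.

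The remaining member, miR-148b, was a minor one and did not pass. Its reads numbered 576, 321 and 489 in adipocyte replicates 1, 2 and 3, against 239, 84 and 365 in preadipocyte replicates 1, 2 and 3. The levels were 28.6, 15.2 and 25 CPM in adipocytes, against 16.3, 6.84 and 22.3 CPM in preadipocytes. The groups overlapped, preadipocyte replicate 3 lying above adipocyte replicate 2. The means were 22.9 ± 6.92 CPM in adipocytes, against 15.2 ± 7.8 CPM in preadipocytes, and the log2 difference was 0.60 (SE 0.50, edgeR BH-adjusted p = 0.417).

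In both cell states miR-148a came first by level, with every library above every level of the other members. The next in order were miR-148c, miR-148b and miR-152, neighbours whose ranges overlapped in adipocytes (92.3 ± 78.8, 22.9 ± 6.92 and 22.3 ± 25.5 CPM) and in preadipocytes (21.2 ± 16.3, 15.2 ± 7.8 and 4.79 ± 4.57 CPM), and miR-148d came last. The family as a whole differed by 1.68 (SE 0.33, edgeR BH-adjusted p = 0.0338), at 1511 ± 273 CPM in adipocytes, against 472 ± 148.4 CPM in preadipocytes, in a fit where 6.33% of 411 miRNAs passed. Its call too was kept without preadipocyte replicate 3 (edgeR BH-adjusted p = 0.0225) and lost without any other single library (0.0652 to 0.127). This sum follows miR-148a, which held 91.1% ± 2.15 of the family's reads in adipocytes and 91.6% ± 1.91 in preadipocytes (exact two-sided permutation p = 0.7, n = 3 each). The other 4 members summed, a sum also chosen after the values were seen, were at 137 ± 50.4 CPM in adipocytes, against 41.3 ± 19.1 CPM in preadipocytes, a difference of 1.73 (SE 0.51, edgeR BH-adjusted p = 0.073).

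Ratios within a library do not depend on the scaling, and set the members against each other. The log2 ratio of miR-148a to miR-148b was 5.81, 6.52 and 5.50 in adipocytes, against 5.03, 5.37 and 4.39 in preadipocytes. Every adipocyte library lay above every preadipocyte library, by 1.01 in the mean, with a two-sided p of 0.1 in an exact permutation test (with 3 libraries on each side no smaller p is possible) and 0.6 after BH adjustment over the 6 pairs of members compared. Over the other 5 pairs, each of which includes miR-148c or miR-152, the groups overlapped and the exact permutation p lay between 0.4 and 1. With the reads of miR-148c and miR-152 summed, the log2 ratio of miR-148a to the sum was 3.71 ± 0.621 in adipocytes, against 4.13 ± 0.339 in preadipocytes (p = 0.4 in an exact permutation test), and that of miR-148b to the sum was -2.23 ± 1.11 in adipocytes, against -0.80 ± 0.349 in preadipocytes (p = 0.2 in the same exact test). Adjusted by BH both p-values were 0.4. The share of miR-148b in the family's reads was 1.61%, 0.972% and 2.06% in adipocytes, below 2.78%, 2.24% and 4.29% in preadipocytes (exact permutation p = 0.1, or 0.5 BH-adjusted over 5 members).

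As a share of all miRNA reads the family took 0.238%, 0.219% and 0.124% in adipocyte replicates 1, 2 and 3, against 0.0494%, 0.0258% and 0.0382% in preadipocyte replicates 1, 2 and 3 (exact two-sided permutation p = 0.1). With miR-21-5p out of the denominator the shares were 0.661%, 0.653% and 0.478% in adipocytes and 0.224%, 0.122% and 0.193% in preadipocytes. The groups did not overlap with either denominator.

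**Figure D5:**
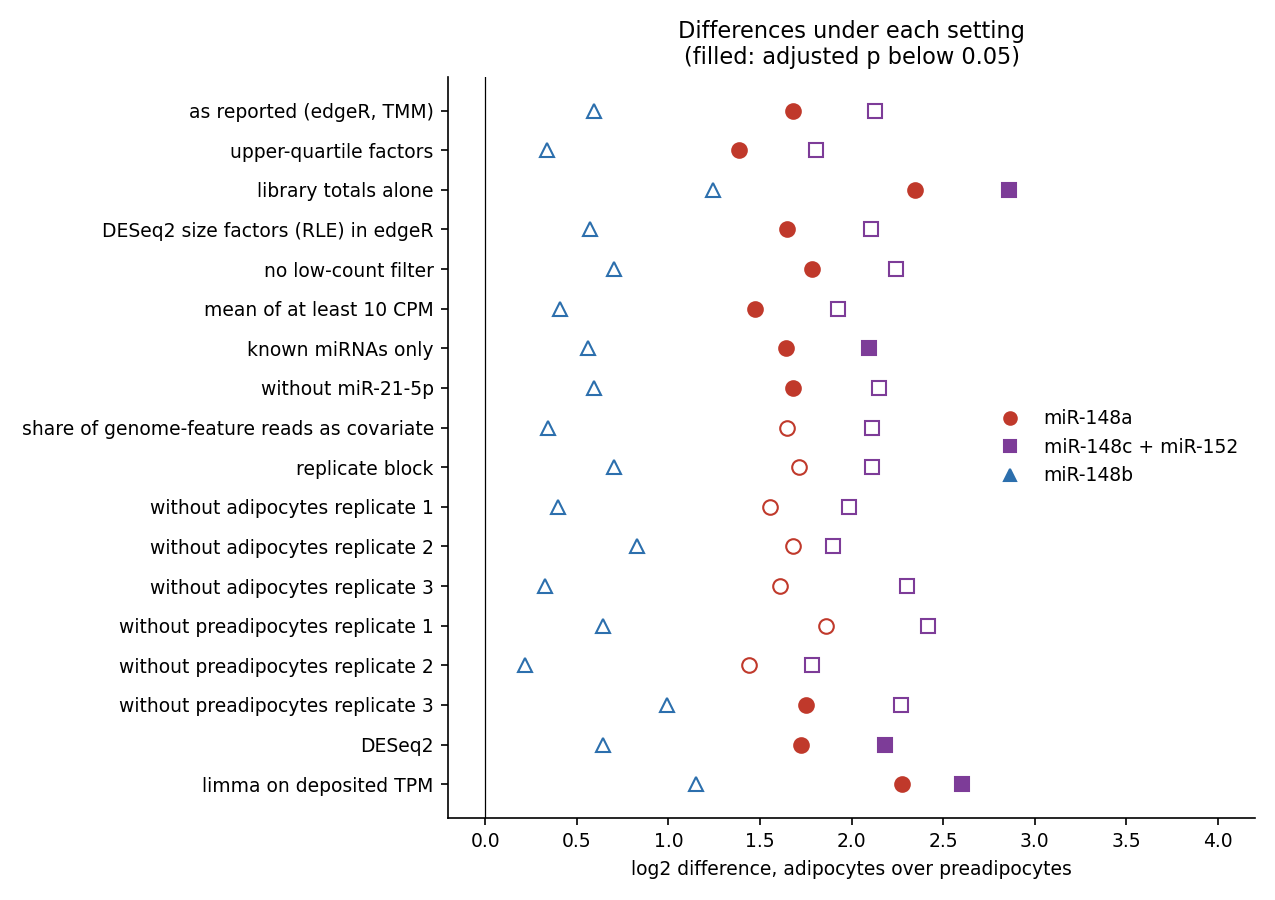
Log2 difference of adipocytes over preadipocytes (x axis) for miR-148a (circles), the summed reads of miR-148c and miR-152 (squares) and miR-148b (triangles) under each setting (rows), filled where the adjusted p is below 0.05. All symbols lie to the right of 0, and miR-148b is filled under no setting. The symbol of miR-148a is open in each fit that leaves out 1 library except the one without preadipocyte replicate 3. It is also open with the genome-feature covariate and under the replicate block.

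By Pearson's r of log2 levels over the 6 libraries, given as a description, the pattern of miR-148a was most like those of miR-15a (0.983), miR-376b (0.98) and miR-410 (0.968) among 198 known miRNAs outside the family at 10 CPM or more. Those 6 libraries fall into 2 groups that stand apart for each of these miRNAs, so that the likeness includes the difference between cell states. The pattern of miR-148b was most like those of miR-195 (0.975), miR-30a-5p (0.953) and let-7b (0.951). The gene of let-7b overlaps that of miR-3596, and the more abundant of these names differed between libraries. For miR-148c the nearest were miR-106b (0.889), miR-130a (0.873) and miR-29b (0.844), and for miR-152 they were miR-211 (0.914), miR-154b (0.824) and miR-1468 (0.796). The more abundant of miR-148c and miR-152 also differed between libraries, their log2 ratio ranging over 10.04. Their likenesses to other miRNAs therefore include that split.

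Other miRNAs described as sharing targets or roles with the family were compared by their counts. Of those described as targeting DNA methyltransferases, 10 outside the family were tested with edgeR and 0 passed in either direction. In this list 4 had an unadjusted p below 0.05, and DESeq2 called 2 higher and 2 lower and limma on TPM 2 higher. An unadjusted p below 0.05 was also common over all 414 tested miRNAs, so that it alone does not mark a list. Over all miRNAs DESeq2 called 59 higher and 57 lower, and limma on TPM 108 higher and 12 lower. Neither this list nor the lists below were tested against those counts. The median log2 difference of these 10 was -0.15. Among them miR-29b, described as acting on DNMT3A and DNMT3B, was at 680 ± 476 CPM in adipocytes, against 120 ± 36 CPM in preadipocytes (edgeR BH-adjusted p = 0.0721), miR-29a at 436 ± 49.3 CPM in adipocytes, against 595 ± 358 CPM in preadipocytes, and miR-143 at 24214 ± 4814 CPM in adipocytes, against 30171 ± 7966 CPM in preadipocytes. The endothelial miR-126-3p, described as targeting DNMT1, had a mean of 50.6 ± 14 CPM in adipocytes, against 232 ± 186 CPM in preadipocytes (edgeR BH-adjusted p = 0.0637).

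Of 11 tested miRNAs outside the family described as acting on ABCA1 or the LDL receptor, 1 rose and 0 fell, where 3.86% of all tested miRNAs were called higher and 2.42% lower. In this list 3 had an unadjusted p below 0.05, DESeq2 called 2 higher and limma on TPM 3 higher, and the median was 0.10. The one that rose was miR-33b, from an intron of the sterol regulator SREBF1, at 37 ± 30.1 CPM in adipocytes, against 0.717 ± 0.269 CPM in preadipocytes (edgeR BH-adjusted p = 0.0381). Its relative miR-33a was at 337 ± 100 CPM in adipocytes, against 100.9 ± 41.6 CPM in preadipocytes (0.0539 by the same test), and miR-27b and miR-27a-3p were at 11097 ± 7248 and 5657 ± 5894 CPM in adipocytes, against 13909 ± 7907 and 10295 ± 13403 CPM in preadipocytes. Of 23 described as promoting adipocyte differentiation, 1 (miR-199a-3p, by 8.70 on the log2 scale) rose and 0 fell, where 3.86% of all tested miRNAs were called higher and 2.42% lower. In this list 8 had an unadjusted p below 0.05, DESeq2 called 4 higher and 2 lower and limma on TPM 8 higher, and the median was 0.47. The groups did not overlap for 5 higher and 4 lower of these 23, against 100 higher and 85 lower of all 414 tested miRNAs. Among the lower ones of the list were miR-21-5p at 559061 ± 143057 CPM in adipocytes, against 984603 ± 92843 CPM in preadipocytes (-0.82, edgeR BH-adjusted p = 0.0637), and miR-92a at 1719 ± 142.3 CPM in adipocytes, against 3212 ± 477 CPM in preadipocytes (-0.90, edgeR BH-adjusted p = 0.0588). The gene of miR-199a-3p overlaps that of miR-3604, which was lower in adipocytes, so that its difference is uncertain.

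The HOX clusters near the family's genes hold 5 miRNA rows, all tested. Of these 0 passed in edgeR's test, 1 had an unadjusted p below 0.05, DESeq2 called 1 higher and limma on TPM 2 higher, and the median was 0.26. The levels of miR-196a were 747 ± 142.1 CPM in adipocytes, against 414 ± 94.7 CPM in preadipocytes (0.85, edgeR BH-adjusted p = 0.0955), those of miR-196b were 329 ± 25.4 CPM in adipocytes, against 216 ± 54.4 CPM in preadipocytes (0.61), and those of miR-10b were 982 ± 153 CPM in adipocytes, against 855 ± 195 CPM in preadipocytes (0.20), each value in parentheses being the log2 difference.

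In tissues miR-148a is also abundant in liver and in B-lineage cells. The hepatocyte marker miR-122 stayed at or below 0.102 CPM in adipocytes, against 0.163 CPM in preadipocytes, and the sum of the leukocyte markers (3 rows) at or below 0.102 CPM in adipocytes, against 0.244 CPM in preadipocytes. The sum of 5 epithelial rows was 0.46 to 0.71 CPM in adipocytes, against 0.547 to 1.06 CPM in preadipocytes, and that of 3 erythroid rows 0.521 to 1.13 CPM in adipocytes, against 1.77 to 4.72 CPM in preadipocytes. That of 4 muscle rows was 20.6 to 25.8 CPM in adipocytes, against 21.3 to 52.9 CPM in preadipocytes, with miR-133a lower in adipocytes at 1.63 ± 0.344 CPM, against 5.99 ± 1.46 CPM in preadipocytes, without overlap (log2 difference -1.88, edgeR BH-adjusted p = 0.0293). The sum of 2 neural rows was 4.19 to 5.6 CPM in adipocytes, against 5.95 to 10.1 CPM in preadipocytes. Both arms of the endothelial miR-126 together were at 43 to 67.9 CPM in adipocytes, against 114 to 455 CPM in preadipocytes, and the part of muscle or endothelial cells in the family's difference was not tested. The 12 rows of mesenchymal miRNAs, the lineage of these cultures, summed to 515570 to 772883 CPM in adipocytes, against 964197 to 1142310 CPM in preadipocytes, most of it miR-21-5p. Of the 12 rows 2 were called higher and 0 lower. They were miR-100 and miR-199a-3p, the latter uncertain because of miR-3604. Over all tested miRNAs 3.86% were called higher and 2.42% lower. Not called, but lower without overlap, were miR-145 (log2 difference -1.64, edgeR BH-adjusted p = 0.0637) and miR-21-5p. Not called, but higher without overlap, were miR-199b (3.15, edgeR BH-adjusted p = 0.0539), whose gene also overlaps that of miR-3604, and miR-22-5p (0.78, edgeR BH-adjusted p = 0.201). Among these marker rows miR-133a, miR-100, miR-145, miR-199b and miR-22-5p were named after their values were seen. No marker list had a row at 0 in all libraries.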

How the data were processed

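Small RNA of 18 to 30 nt was cut from a gel, ligated, amplified and selected at 100 to 120 bp, per the labels' protocols. The submitters' processing notes name Bowtie2. Genome build, miRNA release and the treatment of reads matching several names are not given in the sources used here. Per the file headers, the deposited count columns hold reads; they are whole numbers and not normalized. The deposited TPM values equal the count divided by 1 constant per library (30 of 30 family values within 0.011), with a count of 0 written as 0.001.

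The 771 known and 108 predicted miRNA rows entered the test. Left out were 803 Rfam rows, 527 piRNA rows and 4 genome-feature rows (5.29% to 18.9% of the table's reads). Counts were tested with edgeR 4.0.16 in R 4.3.3 (TMM, filterByExpr, glmQLFit and glmQLFTest with the group alone in the model, two-sided, BH over all 414 tested miRNAs of which 365 known, threshold 0.05), with SEs from the F statistic. DESeq2 1.42.0 on rows with any count and limma 3.58.1 on log2(TPM + 1) were alternatives. The edgeR steps were tested on simulated data. Ratios used 0.5 added counts, and ratios and shares exact permutation tests in SciPy 1.17.1. Of 771 known rows, 753 matched a RefSeq gene. The rule for names took all members, the 3 nearest known miRNAs of each, and the 2 most abundant and 2 of smallest p in each list. Members and lists were chosen with earlier results of these data known. Mature sequences were not analysed here.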

Additional observations from a re-analysis of the deposited data

How the results depend on the processing

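The positive direction of miR-148a, miR-148b, miR-148c, miR-152 and the family's sum held under every alternative run. Under the replicate block, miR-148a (1.71, edgeR BH-adjusted p = 0.125) and the family's sum (1.71, 0.122) missed the threshold and, of all miRNAs, 1 was called higher and 0 lower. Whether the replicate numbers pair the samples could not be decided with 3 libraries per group. Deviations from the group means correlated by 0.04, -0.34 and 0.05 for numbers 1, 2 and 3, and no library correlated best with its own number. With the genome-feature share as covariate the differences of miR-148a and the family's sum were 1.64 and 1.64 (edgeR BH-adjusted p = 0.0547 and 0.0549). Without 1 library, differences ranged from 1.44 to 1.86 for miR-148a, 1.43 to 1.88 for the family's sum, 0.22 to 0.99 for miR-148b, 1.57 to 2.55 for miR-148c, 0.43 to 3.34 for miR-152, 1.79 to 2.42 for miR-148c and miR-152 summed, and the miRNAs past the threshold numbered from 1 to 64 higher and from 0 to 84 lower, both maxima without preadipocyte replicate 3. Higher and lower calls were 16 and 10 as reported, 15 and 34 with upper-quartile factors, 88 and 9 with library totals, 11 and 8 without the low-count filter, 18 and 25 at a mean of 10 CPM or more, 27 and 32 with known miRNAs only, 18 and 15 without miR-21-5p, 17 and 15 with the covariate, 59 and 57 with DESeq2 and 108 and 12 with limma on TPM. The sum of miR-148c and miR-152 passed with library totals (2.86), known miRNAs only (2.10), DESeq2 (2.18) and limma on TPM (2.60). It missed under the other 7 settings with all 6 libraries (edgeR BH-adjusted p = 0.0592 to 0.167) and in every fit without 1 library (0.0538 to 0.223). Without 1 library, the group difference in log2 ratio ranged from 0.72 to 1.23 for miR-148a to miR-148b, -1.52 to 1.40 for miR-148a to miR-148c, -1.23 to 0.93 for miR-148a to miR-152, -2.76 to 0.68 for miR-148b to miR-148c, -2.47 to -0.12 for miR-148b to miR-152 and -2.56 to 2.46 for miR-148c to miR-152. That in the share of the family's reads ranged, in percentage points, from -1.67 to 0.572 for miR-148a, -0.265 to 4.37 for miR-148c, -0.897 to 1.32 for miR-152 and -1.98 to -0.962 for miR-148b. Where calls or signs changed the cause was not tested. Depth limits miR-148d, at 5 reads or fewer per library.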

Other observations

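The Rfam row of the mir-148/mir-152 precursor family, which entered no comparison, was deposited at 4.87, 4.42 and 1.99 TPM in adipocyte replicates 1, 2 and 3, against 0.18 and 1.75 TPM in preadipocyte replicates 1 and 3 and a count of 0 in preadipocyte replicate 2. Scaled by the TMM factors these were 5.75, 5.07 and 2.86 CPM in adipocytes, against 0.342, 0 and 3.24 CPM in preadipocytes. The groups overlapped, since preadipocyte replicate 3 lay above adipocyte replicate 3 (exact two-sided permutation p = 0.2, n = 3 each). The row came to 0.236% to 0.324% of the family's miRNA reads in adipocytes and 0% to 0.623% in preadipocytes. Whether its reads are also counted in the miRNA rows is not given in the labels or the file.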
